A study of Mus musculus with 12 samples.

Results

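The Hox genes of the mouse were followed in 2 testis-derived cell lines. Members were all rows of the deposited expression table whose symbol names a HoxA, HoxB, HoxC or HoxD gene by cluster letter and paralogue number, 39 of 17995 genes, with 11 in HoxA, 10 in HoxB, 9 in HoxC and 9 in HoxD. RNA-seq had been made of C18-4 cells, a line of mouse spermatogonial stem cells, and of TM4 cells, a mouse Sertoli cell line, to ask what knockdown of the muscarinic acetylcholine receptor M5 changes in each. In both lines shM5 cells (labelled CM5 and TMM5) had been transfected with a mix of 3 shRNAs against M5 and shNC cells (labelled C3NC and TM3NC) with control shRNA, so no library came from untransfected cells. Each of the 4 groups held 3 libraries, 12 in all, and each cell type was represented by a single cultured line. The labels gave the strain as IRC, which the study's methods spell ICR, and did not say whether replicates were separate cultures, so p-values measure the spread between libraries, which may be technical.

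Hox genes encode homeodomain transcription factors. They stand in clusters in which the order of the genes follows the order in which they are used along the head-to-tail axis, with low paralogue numbers used toward the head and high numbers toward the tail, in the limbs and in the urogenital tract. Genes of the same number in different clusters are called a paralogue group. Adult cells and cultured lines often keep the Hox combination of the place they came from, which is why these genes are read as a mark of positional identity.

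Levels are given in RPKM, reads scaled to gene length and to the mapped reads of the library, which allows genes to be compared per length. The RPKM of a library summed to between 506413 and 540231. Read numbers were not used here, so the sampling error of a single low value is unknown. The spacing of low values in up to 160 genes put the worth of 1 read at 0.987 to 1.02 of the common value. Genes entered only if their values lay near whole multiples of a shared step, so this cannot show whether libraries were equally deep. Expression of Chrm5, the gene of M5, was too low to check the knockdown in RNA, with a highest value of 0.01 RPKM and 0 in 10 of 12 libraries. The study reports less M5 protein in shM5 cells of both lines by immunofluorescence. The lines matched their names poorly by marker genes. In C18-4 cells 19 of the 23 germ cell markers listed had values and 3 reached 1 RPKM. These were Uchl1 at 116 ± 21.6, Id4 at 3.08 ± 1.07 and Etv5 at 1.91 ± 0.249 RPKM (SD, n = 6), with 0, 0.0833 and 6.75 RPKM in TM4 cells. Kit, Stra8, Sohlh1 and Sohlh2 were listed at 0 in every C18-4 library, and the germ cell RNA helicase gene Ddx4 averaged 0.0217 RPKM there. Gfra1, Ret and Zbtb16, of the same list, averaged 0.185, 0.00333 and 0.00667 RPKM in C18-4 cells. In TM4 cells 18 of the 21 Sertoli markers had values and 7 reached 1 RPKM; Sox9 averaged 1.30 ± 0.247 RPKM (SD, n = 6), Wt1 0.0983 ± 0.0371, and Nr5a1 was at 0, whereas Wt1 averaged 63.7 ± 6.94 in C18-4 cells. The names C18-4 and TM4 are used below as the names of lines, not of cell types. In bulk RNA, fewer cells with a transcript and less transcript per cell cannot be told apart. Libraries TM4 shNC 1 and 2 stood apart from the other 4 TM4 libraries, with root mean square log2 differences of 0.64 to 0.677 over all genes against at most 0.271 among those 4. In C18-4 cells both libraries numbered 3 differed from those numbered 1 and 2.

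Among the large contrasts between the lines were those at the tail ends of HoxA and HoxD. The upstream sequences of genes from that end are shown first, because they belong to close neighbours whose differences between the lines were unlike in size or direction. Hoxa10 was high in both lines and Hoxa11, the next gene of its cluster, was listed at 0 in C18-4 cells. Hoxd10 and Hoxd11 were TM4 genes in these data and Hoxd13 a C18-4 gene. The sequences are the 250 bases before a RefSeq transcription start (GRCm38.p6), written 5′ to 3′ on the strand of the gene, with every CG dinucleotide in capitals. For Hoxa10 and Hoxd11, which have 2 listed starts each, the one with more CG is shown. Hoxa10 is at chr6:52234940-52235189 and Hoxa11 at chr6:52245811-52246060, both on the minus strand. Hoxd10 is at chr2:74691641-74691890, Hoxd11 at chr2:74682073-74682322 and Hoxd13 at chr2:74667975-74668224, all on the plus strand.
Hoxa10: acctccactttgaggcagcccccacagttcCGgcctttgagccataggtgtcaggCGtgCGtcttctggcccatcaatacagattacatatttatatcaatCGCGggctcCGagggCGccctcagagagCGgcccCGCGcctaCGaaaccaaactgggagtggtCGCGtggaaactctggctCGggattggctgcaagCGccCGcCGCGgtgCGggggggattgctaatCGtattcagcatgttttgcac
Hoxa11: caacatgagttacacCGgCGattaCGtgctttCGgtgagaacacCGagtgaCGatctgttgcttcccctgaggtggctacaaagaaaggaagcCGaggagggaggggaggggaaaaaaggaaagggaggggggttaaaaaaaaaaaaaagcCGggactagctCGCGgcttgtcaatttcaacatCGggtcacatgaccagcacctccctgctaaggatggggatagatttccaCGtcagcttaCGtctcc
Hoxd10: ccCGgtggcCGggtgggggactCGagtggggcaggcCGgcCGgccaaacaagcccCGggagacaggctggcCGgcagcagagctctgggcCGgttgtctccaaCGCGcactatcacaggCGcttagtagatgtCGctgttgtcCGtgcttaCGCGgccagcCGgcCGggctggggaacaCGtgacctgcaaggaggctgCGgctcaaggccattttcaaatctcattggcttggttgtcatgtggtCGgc
Hoxd11: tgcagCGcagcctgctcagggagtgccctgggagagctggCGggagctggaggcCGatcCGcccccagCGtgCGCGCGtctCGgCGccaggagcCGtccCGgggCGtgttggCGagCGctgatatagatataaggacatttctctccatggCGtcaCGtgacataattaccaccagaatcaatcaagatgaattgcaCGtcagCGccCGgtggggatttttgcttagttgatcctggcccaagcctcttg
Hoxd13: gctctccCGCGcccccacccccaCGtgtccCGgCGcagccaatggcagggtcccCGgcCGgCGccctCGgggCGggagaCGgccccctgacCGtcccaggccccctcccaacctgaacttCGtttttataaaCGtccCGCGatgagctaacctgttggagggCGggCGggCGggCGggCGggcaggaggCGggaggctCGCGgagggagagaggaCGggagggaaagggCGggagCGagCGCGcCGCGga

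The Hoxa11 stretch held 13 CG, those of Hoxa10, Hoxd10 and Hoxd11 20 each and that of Hoxd13 31, and 5.19% of all 32851 promoter stretches of this length held 31 or more. Upstream sequence was given for 22 of the 39 members, with 24 starts, which had a median of 12.5 CG against 6 over all stretches. The TATA box letters TATAAA, searched on both strands, were present before Hoxa10 and Hoxd13 and not in the other 3 stretches, and in 12.4% of all stretches. CCAAT, on either strand, was present at 14 of the 24 Hox starts and in 33.8% of all stretches. TGACAG, the core bound by MEIS proteins, was found at 2 Hox starts (15.9% of all stretches), and TGATNNAT, bound by HOX and PBX proteins together, at 4 (7.68%). These matches are letters in a window and were not tied to the levels below.

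C18-4 and TM4 cells both carried a broad Hox code, and it was not the same one. Taking an average of 1 RPKM or more in a line as present, 23 members were present in C18-4 cells and 29 in TM4 cells, 21 of them in both. Hoxc8 and Hoxd13 reached that level in C18-4 cells alone. Hoxa11, Hoxb2, Hoxb13, Hoxc11, Hoxc12, Hoxd4, Hoxd10 and Hoxd11 reached it in TM4 cells alone. Thus 10 of the 31 members present in either line were present in 1 line only, whereas 13.3% of the 11544 genes of the whole table that reached the level in either line did so in 1 line only. The other 8 members reached it in neither line. Hoxa11, Hoxb1, Hoxb13, Hoxc11, Hoxc12 and Hoxd12 were listed at 0 in all 6 C18-4 libraries and Hoxa13, Hoxb1 and Hoxd1 in all 6 TM4 libraries, while all 76 ribosomal protein genes were above 0 in every library. Across the 39 members the line means of log2(RPKM + 0.1) correlated with a Pearson r of 0.458 (Spearman rho 0.444), against 0.909 and 0.897 over all 17995 genes. The set of all genes spans a wider range of levels and holds 772 genes at 0 in every library, so its coefficients are not a like-for-like measure. Genes are not independent replicates, and these coefficients are descriptions.

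**Figure D1:**
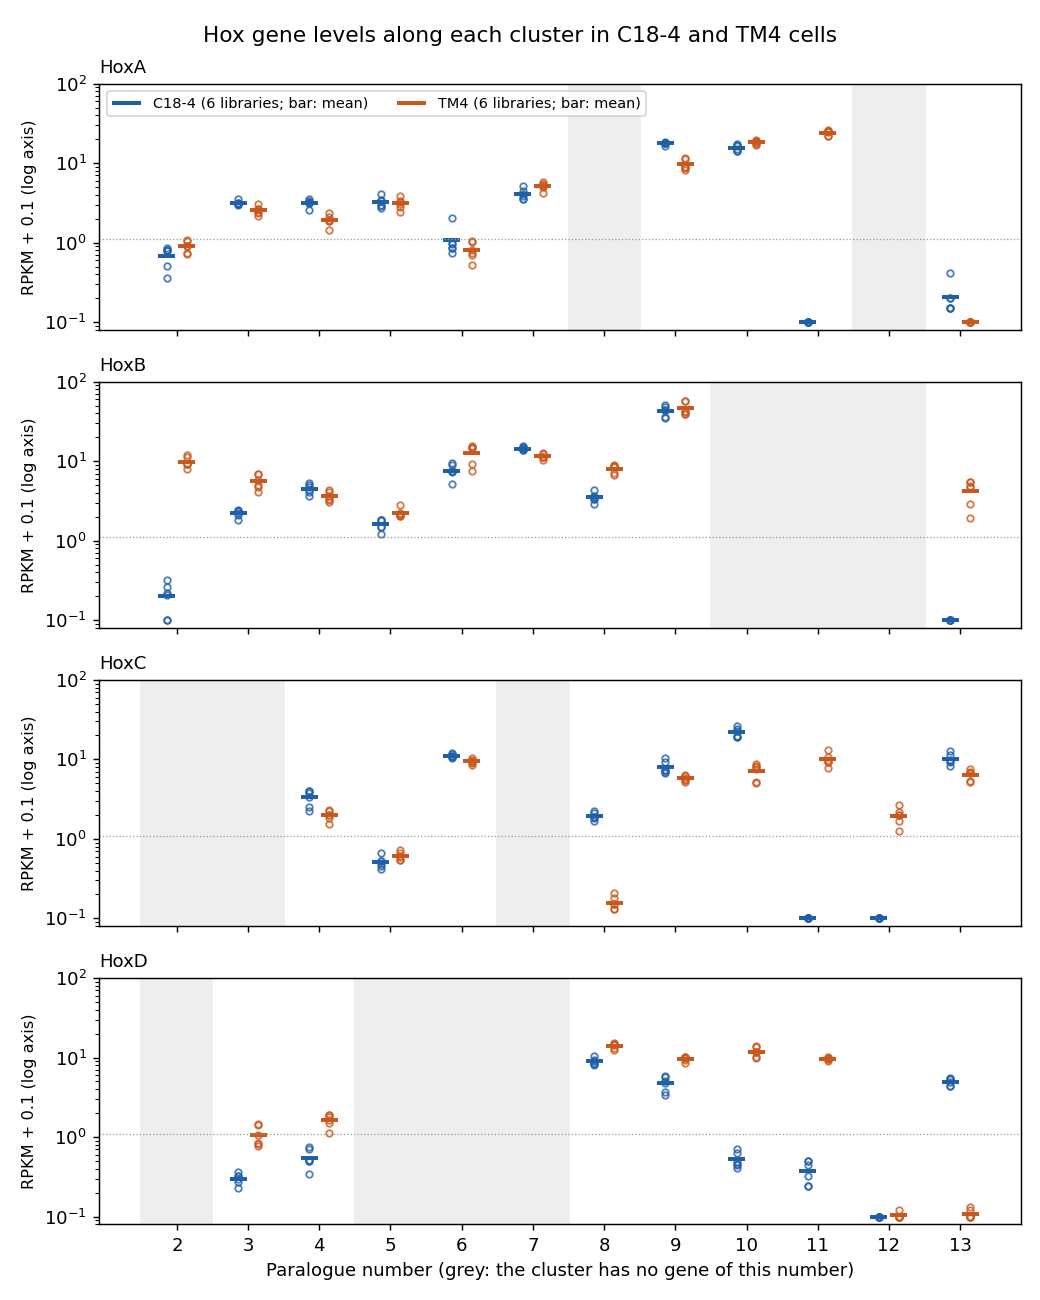
Level of the Hox genes of paralogue numbers 2 to 13 (y axis, RPKM + 0.1 on a log axis) against that number, by cluster, in 6 C18-4 and 6 TM4 libraries; points are libraries, bars are means over the 6, and the dotted line marks 1 RPKM. The lines lie within a few-fold of each other in HoxA from Hoxa2 to Hoxa10 and in HoxB from Hoxb3 to Hoxb9, and are far apart at number 11 in HoxA, HoxC and HoxD and at Hoxb2, Hoxb13, Hoxc8, Hoxc12, Hoxd10 and Hoxd13.

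Summed over all 39 members, the level was 204 ± 3.5 RPKM in C18-4 cells and 261 ± 5.59 RPKM in TM4 cells (mean ± SD, n = 6). The ranges of the libraries, 200 to 209 and 252 to 266 RPKM, did not overlap. HoxB was the largest cluster by sum in both lines, with 76.7 ± 7.68 RPKM in C18-4 and 103 ± 6.54 RPKM in TM4 cells. HoxA followed in TM4 cells with 67.3 ± 2.47 RPKM, against 51.0 ± 2.27 RPKM in C18-4 cells. HoxC was the only cluster with the higher sum in C18-4 cells, at 56.2 ± 6.75 against 42.6 ± 2.14 RPKM, so that it made up 27.6% of the Hox sum there and 16.3% in TM4 cells. HoxD showed the reverse, with 19.7 ± 1.51 RPKM in C18-4 and 47.2 ± 2.04 RPKM in TM4 cells, or 9.70% and 18.1% of the sum. For none of the clusters did the libraries of the lines overlap. Sums are dominated by their highest members. Hoxb9 alone gave 43.3 ± 6.47 and 46.2 ± 8.697 RPKM.

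By class, posterior genes (numbers 9 to 13) held 62.2% of the Hox sum in C18-4 and 62.9% in TM4 cells, at 127 ± 2.63 and 164 ± 6.12 RPKM. Central genes (4 to 8) summed to 68.1 ± 0.949 and 75.8 ± 5.94 RPKM, with overlapping libraries. Anterior genes (1 to 3) were the smallest class, with 8.85 ± 0.672 and 20.99 ± 2.63 RPKM. Both lines thus had most of their Hox RNA from genes numbered 9 to 13. Paralogue group 9 alone summed to 73.5 ± 4.94 RPKM in C18-4 and 70.9 ± 10.3 RPKM in TM4 cells. The anterior class differed mainly by Hoxb2 and Hoxb3.

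Sums by paralogue group showed where along the clusters the lines differed. Group 9 was the highest in both, at 73.5 ± 4.94 RPKM in C18-4 and 70.9 ± 10.3 RPKM in TM4 cells, and group 10 reached 37.8 ± 3.69 and 36.9 ± 3.82 RPKM. Libraries overlapped in both of these groups, and also in groups 4, 5, 6 and 7. Group 11 stood at 0.275 ± 0.124 RPKM in C18-4 cells and at 43.6 ± 1.08 RPKM in TM4 cells, where it was the second highest of the 13 groups. Group 12 was listed at 0 in all C18-4 libraries and summed to 1.87 ± 0.484 RPKM in TM4 cells. Beyond it, group 13 was again higher in C18-4 cells, with 15.1 ± 1.19 against 10.5 ± 1.49 RPKM. At the other end, group 2 was 15.3-fold higher in TM4 cells, at 10.6 ± 1.44 against 0.690 ± 0.242 RPKM. In C18-4 cells numbers 11 and 12 were thus nearly silent between 2 groups with clear levels, 10 and 13.

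**Figure D2:**
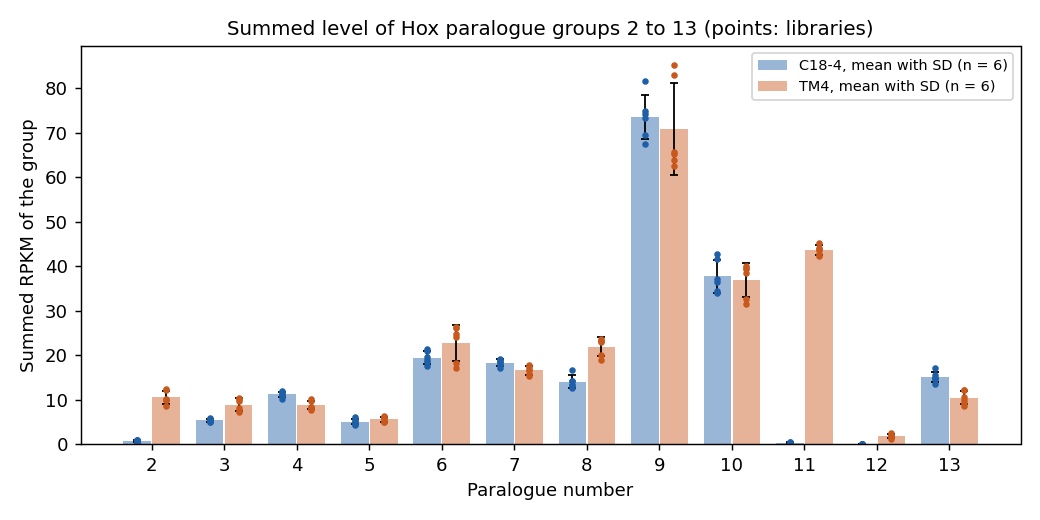
Summed RPKM of paralogue groups 2 to 13 (y axis) by paralogue number (x axis) in C18-4 and TM4 cells; bars are means of 6 libraries with SD, and points are single libraries. In groups 9 and 10 the libraries of the lines overlap, whereas group 11 stands at 0.275 RPKM in C18-4 and 43.6 RPKM in TM4 cells.

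For tests, log2(RPKM + 0.1) was fitted with limma in the 11773 genes whose 12 libraries averaged 0.5 RPKM or more, with C18-4 minus TM4 as the difference. A gene was called when its adjusted p did not exceed 0.001 and its log2 difference was 1 or more in size. Differences on this scale understate those of low genes. Of the 39 members, 34 were tested, and 15 were called, 3 higher in C18-4 and 12 higher in TM4 cells. Among all genes tested 26.3% were called, 16.8% higher in C18-4 and 9.54% higher in TM4 cells. Hoxa11, Hoxb2, Hoxb13, Hoxc11, Hoxc12, Hoxd3, Hoxd4, Hoxd10 and Hoxd11 averaged below 0.5 RPKM in C18-4 cells. Hoxc8 and Hoxd13 did so in TM4 cells. These members passed the filter through the other line alone, so a difference between the lines was built into their entry to the test. The same filter was applied to all genes. The median difference of the tested members was -0.29, against 0.14 over all genes tested, and by cluster it was 0.19 for HoxA, -0.72 for HoxB, 0.56 for HoxC and -1.59 for HoxD. By adjusted p alone, below 0.05, 30 members passed, 13 higher in C18-4 and 17 higher in TM4 cells, where 73% of all genes passed, 43.9% and 29.2%. Libraries of the lines did not overlap for 23 of the 34 members tested, against 52.8% of all genes tested. Without TM4 shNC 1 and 2 the count of called members was also 15, with Hoxa9 added and Hoxd3 below the filter, and without both C18-4 libraries numbered 3 it was 15.

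Hoxa11 and Hoxc11, of group 11, were listed at 0 in one line and expressed in the other. Hoxa11, which patterns the forearm, kidney and uterus, was listed at 0 in all 6 C18-4 libraries and had a lowest, median and highest value of 21.7, 24.9 and 25.96 RPKM in TM4 cells (adjusted p = 1.18e-14, limma). It was the second highest Hox gene of TM4 cells, after Hoxb9. Hoxc11, a gene of the hindlimb and lumbosacral region, was likewise at 0 in C18-4 cells and at 7.64, 9.44 and 13.2 RPKM in TM4 cells (adjusted p = 7.01e-13, limma). Hoxd11, which acts with Hoxa11 in forearm and kidney, had 0.14, 0.285 and 0.4 RPKM in C18-4 and 8.85, 9.63 and 9.93 RPKM in TM4 cells, 34.7-fold higher by the means, with a log2 difference of -4.75 (SE 0.10) and an adjusted p of 1.2e-12 (limma). For all 3 members of the group the lowest TM4 library stood above every C18-4 library. No fold is given for genes listed at 0 in a line. In the GENCODE M21 annotation 35.0% of the exon bases of Hoxa11 lie opposite the antisense gene Hoxa11os, and since the strand used in counting is not given in the sources used here, reads of the 2 genes cannot be told apart.

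Next to group 11, Hoxd10 and Hoxc10 went in opposite directions. Hoxd10, needed for lumbar motor neurons, had 0.31, 0.37 and 0.61 RPKM in C18-4 and 9.63, 11.6 and 13.8 RPKM in TM4 cells, a log2 difference of -4.51 (SE 0.13) with an adjusted p of 2.99e-11 (limma). Hoxc10, its paralogue with a related role in the lumbar spinal cord, had 18.8, 21.1 and 26.1 RPKM in C18-4 and 4.96, 7.59 and 8.76 RPKM in TM4 cells, a log2 difference of 1.64 (SE 0.12) with an adjusted p of 2.16e-07 (limma). Neither gene had overlapping lines. Hoxc10 shares 8.70% of its exon bases with Hoxc5 on the same strand. Gm28309, also on the same strand, shares 5.73% of those of Hoxd10 and 10.8% of those of Hoxd11. How reads were divided among these genes is uncertain. Hoxa10, the third of the group and a gene of uterine development and testis descent, had 13.9, 15.7 and 17.1 RPKM in C18-4 and 16.96, 18.4 and 19.3 RPKM in TM4 cells, where the lines overlapped. Its log2 difference of -0.23 (SE 0.07) passed an adjusted p below 0.05 (0.0127, limma) without reaching the fold threshold. The overlapping sums of the group were therefore made up of different genes, mostly Hoxc10 and Hoxa10 in C18-4 cells and Hoxa10 and Hoxd10 in TM4 cells.

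At the tail end of the clusters each line had its own set. Hoxd13, required for digits and external genitalia, had 4.23, 5.04 and 5.46 RPKM in C18-4 cells and at most 0.03 RPKM in TM4 cells, where it was above 0 in 2 of 6 libraries (log2 difference 5.53 (SE 0.11), adjusted p = 1.1e-12, limma). Hoxb13, a gene of the prostate and of the tail tip, was listed at 0 in all C18-4 libraries and had 1.85, 4.74 and 5.43 RPKM in TM4 cells (adjusted p = 3.63e-10, limma). Hoxc12 was at 0 in C18-4 and at 1.15, 1.88 and 2.59 RPKM in TM4 cells (adjusted p = 3.47e-10, limma). Libraries of the lines were separate for all 3. Hoxc13, which controls hair and nail keratins, was present in both lines, at 8.19, 9.59 and 12.6 RPKM in C18-4 and 5.14, 6.66 and 7.37 RPKM in TM4 cells. It passed an adjusted p below 0.05 (0.000186, limma) with a log2 difference of 0.66 (SE 0.11), short of the fold threshold, and its lines did not overlap. Hoxa13, a partner of Hoxd13 in limb and genital tubercle, stood at 0.05 to 0.31 RPKM in C18-4 cells and at 0 in TM4 cells (exact two-sided permutation test over libraries, p = 0.00216, the smallest this design can give), and Hoxd12 was listed at 0 in 11 of 12 libraries. In C18-4 cells the most posterior set was therefore Hoxc13 and Hoxd13, and in TM4 cells Hoxb13, Hoxc12 and Hoxc13.

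In the middle of the clusters Hoxc8 set C18-4 cells apart. This gene, which patterns thoracic vertebrae and brachial motor neurons, had 1.56, 1.78 and 2.12 RPKM in C18-4 and 0.03, 0.05 and 0.11 RPKM in TM4 cells, 31.3-fold higher by the means (log2 difference 3.62 (SE 0.14), adjusted p = 4.92e-10, limma). Its neighbours Hoxc6 and Hoxc9 were present in both lines. Hoxb8, known from neural crest, spinal cord and grooming behaviour, went the other way with 2.78, 3.35 and 4.26 RPKM in C18-4 and 6.59, 8.45 and 8.76 RPKM in TM4 cells (log2 difference -1.20 (SE 0.11), adjusted p = 9.08e-07, limma). The third paralogue, Hoxd8, was the highest of the group in both lines, at 7.94, 8.76 and 10.2 and 12.2, 14.5 and 14.99 RPKM, without overlap, and its log2 difference of -0.65 (SE 0.08) was under the fold threshold. Hoxd9, which acts in the forelimb, had 3.25, 4.84 and 5.72 RPKM in C18-4 and 8.45, 9.73 and 10.02 RPKM in TM4 cells. Its log2 difference of -1.04 (SE 0.12), with an adjusted p of 1.01e-05 (limma), lay just past the fold threshold, and the call was lost without C18-4 shM5 replicate 1, where the difference was -0.97, with 1 RPKM added in place of 0.1 (-0.91), with shNC libraries alone (-0.93) and with shM5 libraries alone (-1.15, adjusted p = 0.00106). With shNC libraries alone Hoxb8 was not called either (log2 difference -1.06, adjusted p = 0.0036, limma).

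Of the anterior genes, Hoxb2 differed most. Hoxb2, a hindbrain and facial motor neuron gene, had 0, 0.115 and 0.22 RPKM in C18-4 cells, with 0 in 2 libraries, and 8, 9.2 and 11.8 RPKM in TM4 cells (log2 difference -5.73 (SE 0.28), adjusted p = 3.93e-09, limma). Hoxb3, its neighbour with roles in hindbrain and thyroid, had 1.73, 2.21 and 2.34 and 3.96, 5.36 and 6.82 RPKM (log2 difference -1.30 (SE 0.12), adjusted p = 1.71e-06, limma). In both genes the lines were separate. Of the exon bases of Hoxb3 52.9%, and of those of Hoxb2 27.3%, lie opposite Hoxb3os, so antisense reads may be among both values. Hoxd3, a gene of the upper neck vertebrae, had 0.13, 0.21 and 0.26 and 0.67, 0.85 and 1.37 RPKM (log2 difference -1.79 (SE 0.17), adjusted p = 1.3e-06, limma). Hoxd4, which also acts in the neck vertebrae, had 0.24, 0.41 and 0.64 and 1.02, 1.61 and 1.79 RPKM (log2 difference -1.59 (SE 0.15), adjusted p = 1.43e-06, limma). Hoxd3 and Hoxd4 share 388 exon bases with each other, and the gene Gm28230 on the same strand shares 53.1% of the exon bases of Hoxd3 and 39.1% of those of Hoxd4, so how reads were divided among the 3 genes is uncertain. Both were low in C18-4 cells and at most 1.79 RPKM in TM4 cells, and the lines were separate. With 1 RPKM added in place of 0.1 neither reached the fold threshold (log2 differences of -0.70 for Hoxd3 and -0.80 for Hoxd4), and with shM5 libraries alone Hoxd4 was not called (adjusted p = 0.00187, limma).

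**Figure D3:**
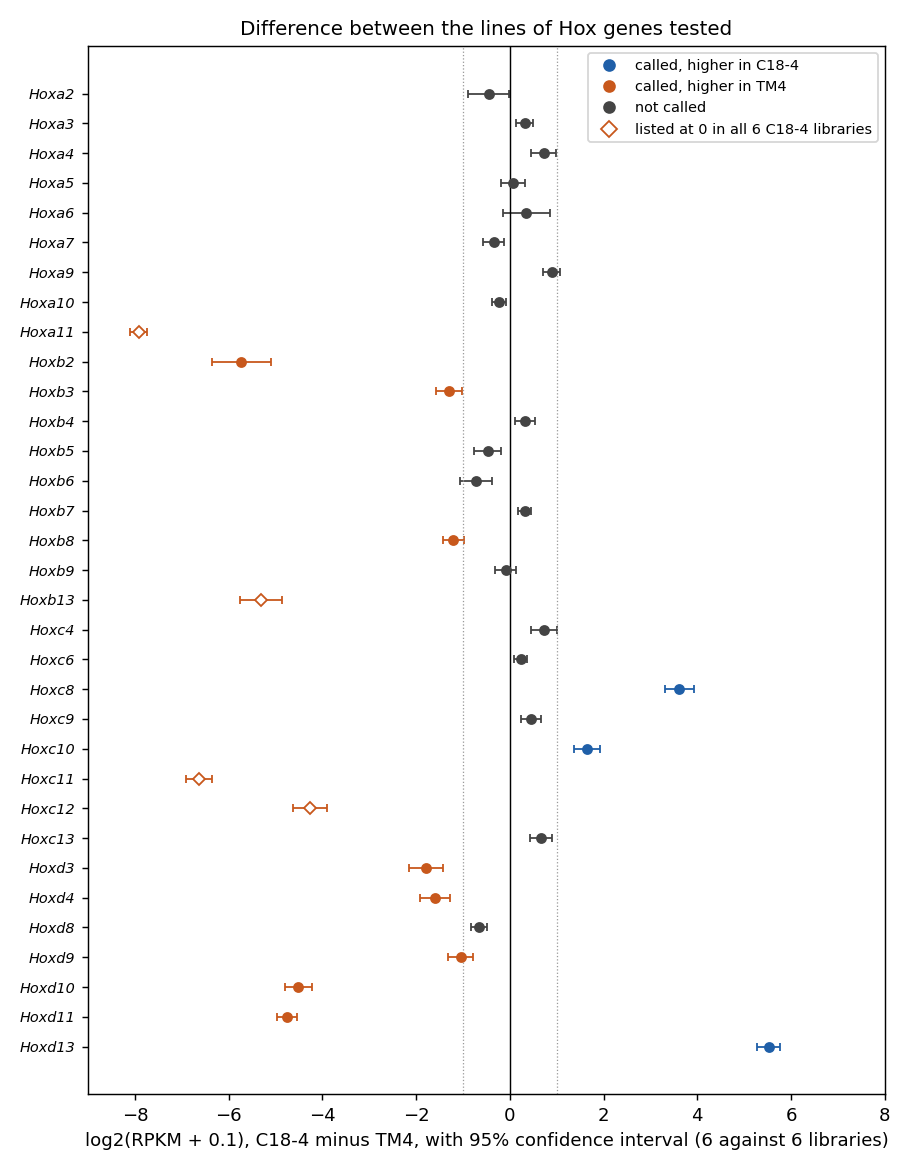
Difference between the lines in log2(RPKM + 0.1), C18-4 minus TM4 (x axis), with 95% confidence intervals over 6 and 6 libraries, for 33 of the 34 Hox genes tested; colours mark genes called higher in C18-4 (3) or TM4 cells (12), and open diamonds mark genes listed at 0 in every C18-4 library, whose position depends on the 0.1 added and is no fold. In HoxA only Hoxa11 is called, while HoxA from Hoxa2 to Hoxa10 stays within 1 of zero.

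The members that were not called differed by less than 1 on the log2 scale, and most of them were present in both lines. Hoxb9, a gene of thoracic rib patterning and the highest Hox gene of both lines, had 34.8, 44.6 and 51.4 RPKM in C18-4 and 38.95, 42.1 and 57.8 RPKM in TM4 cells, a log2 difference of -0.09 (SE 0.10) with a 95% interval from -0.31 to 0.14. Hoxa5, needed for lung and airway development, had 2.63, 3.06 and 3.99 and 2.31, 3.05 and 3.79 RPKM, a log2 difference of 0.06 (SE 0.12) with an interval from -0.20 to 0.32. Libraries overlapped in both genes. Hoxa2 (adjusted p = 0.061, limma) and Hoxa6 (adjusted p = 0.187, limma), both under 1 RPKM by the means of both lines, did not pass either. Hoxa9, known from blood stem cells and leukaemia, had 16.2, 17.9 and 18.2 RPKM in C18-4 and 8.21, 8.93 and 11.4 RPKM in TM4 cells without overlap, and its log2 difference of 0.89 (SE 0.08) was short of the fold threshold. On the log2 scale Hoxa4 was higher in C18-4 cells by 0.73, Hoxb7 by 0.32 and Hoxc9 by 0.45, all with separate lines. Hoxa3 (0.32), Hoxb4 (0.32), Hoxc4 (0.73) and Hoxc6 (0.23) were higher in C18-4 cells with overlapping lines. Hoxb5 (-0.47) was lower in C18-4 cells with separate lines, and Hoxa7 (-0.35) and Hoxb6 (-0.72) with overlapping lines. Each of these passed an adjusted p below 0.05. Hoxc5 was too low for the test, at 0.32 to 0.57 RPKM in C18-4 and 0.44 to 0.63 RPKM in TM4 cells (exact two-sided permutation test, p = 0.0584), and Hoxb1, a hindbrain gene, was listed at 0 in all 12 libraries. Hoxd1 did not exceed 0.11 RPKM.

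Ranked by mean, the order in C18-4 cells was led by Hoxb9, Hoxc10 and Hoxa9, at 43.3 ± 6.47, 21.8 ± 3.02 and 17.7 ± 0.746 RPKM. Hoxb9 and Hoxc10 each stood clear of the next gene, whereas Hoxa9 overlapped Hoxa10 and Hoxa10 overlapped Hoxb7. From Hoxc6, the sixth, down to Hoxa3 each gene overlapped the next. In TM4 cells Hoxb9, Hoxa11 and Hoxa10, at 46.2 ± 8.697, 24.2 ± 1.84 and 18.2 ± 0.869 RPKM, each stood clear of the next gene. From Hoxd8, the fourth, down to Hoxc5 each of the TM4 genes overlapped its successor, and a step without overlap separated Hoxc5 from Hoxc8.

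Genes that act with or on the Hox clusters differed between the lines in part. HOX proteins bind DNA with homeodomain partners of the PBX, MEIS and PREP families, and all 9 of these genes were tested. Called higher in TM4 cells were 3, among them Pknox2 (21.6 ± 5.12 against 0.0267 ± 0.0242 RPKM) and Meis2 (22.3 ± 4.76 against 7.98 ± 0.783 RPKM). Pbx4 was called higher in C18-4 cells, at 3.87 ± 0.849 against 0.285 ± 0.166 RPKM. The other 5 were not called. Of 30 Polycomb group genes, whose products keep silent Hox genes repressed, 3 were called higher in C18-4 cells, among them Cbx7 (3.91 ± 1.40 against 0.915 ± 0.152 RPKM) and Ring1 (7.09 ± 1.26 against 3.16 ± 0.206 RPKM). Phf19 was called higher in TM4 cells, at 8.31 ± 2.17 against 3.35 ± 0.385 RPKM. None of 16 Trithorax group genes, which keep active Hox genes on, was called, while 8 of them passed an adjusted p below 0.05, 4 in each direction. For all genes tested these shares were 26.3% called and 73% past the adjusted p, and the 4 called of 30 Polycomb group genes stand beside the same 26.3%. The median differences of these 3 lists were 0.06, 0.05 and -0.07, against 0.14 over all genes tested.

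Among 11 tested genes of the retinoic acid and Gdf11 pathways and other known Hox regulators, 2 were called in each direction. Of all genes tested, 16.8% were called higher in C18-4 and 9.54% higher in TM4 cells. Aldh1a1, which makes retinoic acid, stood at 83.6 ± 6.55 RPKM in C18-4 and 0.817 ± 0.193 RPKM in TM4 cells, and Gmnn, the geminin gene, at 61.9 ± 6.44 and 30.1 ± 13.01 RPKM. Rarb, a receptor and target of retinoic acid, showed 0.0317 ± 0.0293 against 1.96 ± 0.340 RPKM and Gdf11, a signal that sets the trunk-to-tail transition, 2.45 ± 0.495 against 8.10 ± 1.72 RPKM. None of the 16 tested genes that flank the clusters was called, where 26.3% of all genes were. Of these 16, 12 passed an adjusted p below 0.05 as higher in C18-4 cells and 1 as lower. Among all genes 43.9% and 29.2% did. Other homeobox, T-box and forkhead genes of regional identity were called higher in C18-4 cells in 13 of 29 cases and in TM4 cells in 9, where 16.8% and 9.54% of all genes were called. An example higher in C18-4 cells was Lhx2 (7.68 ± 1.499 against 0.0117 ± 0.0286 RPKM). Examples higher in TM4 cells were Tbx3 (25.2 ± 10.1 against 0.00667 ± 0.00516 RPKM) and Irx1 (22.1 ± 13.5 RPKM, listed at 0 in C18-4 cells). Non-coding genes of the clusters were not analysed here.

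Markers of other cell types moved with the same contrast. Of 10 fibroblast and mesenchyme markers 9 were tested and 6 were called higher in TM4 cells, where 9.54% of all genes were. Prrx1, a mesenchymal homeobox gene, stood at 149 ± 9.06 RPKM in TM4 against 1.70 ± 0.769 RPKM in C18-4 cells. Col1a1 was higher in C18-4 cells, at 332 ± 42.1 against 212 ± 65.4 RPKM (log2 difference 0.70, adjusted p = 0.00034, limma), and Col3a1 stood at 90.3 ± 20.1 and 115 ± 44.4 RPKM (adjusted p = 0.231, limma). All 4 tested epithelial markers of the 6 listed were called higher in C18-4 cells, where 16.8% of all genes were. Krt18 stood at 83.1 ± 11.97 RPKM and Krt19 at 281 ± 84.2 RPKM, against 0.0167 ± 0.0258 and 0.05 ± 0.0438 RPKM in TM4 cells. The 4 tested markers were near or at 0 in TM4 cells, so they passed the filter through their C18-4 values alone. The other 2, Cdh1 and Cldn4, averaged 0.0317 and 0.0233 RPKM in C18-4 cells. The summed level of the epithelial list was 263 to 472 RPKM in C18-4 libraries. The part of these differences in the Hox contrasts was not tested.

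In neither line did the Hox profile of shM5 cells part from that of shNC cells as the lines parted from each other. Across the 39 members the means of shNC and shM5 cells correlated with a Pearson r of 0.993 in C18-4 and 0.995 in TM4 cells, the lowest r between any 2 libraries of the same line was 0.98, and r between libraries of different lines ranged from 0.433 to 0.493. The Hox sum was 204 ± 4.36 RPKM in shNC and 203 ± 3.06 RPKM in shM5 C18-4 cells, and 260 ± 4.58 and 261 ± 7.52 RPKM in TM4 cells (n = 3), and the ranges overlapped in both lines.

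In C18-4 cells the sums of HoxB were higher and those of HoxC lower in every shM5 library than in any shNC library. HoxB summed to 70.3 ± 4.61 RPKM in shNC and 83.1 ± 1.80 RPKM in shM5 cells, and HoxC to 61.7 ± 4.93 and 50.8 ± 0.511 RPKM (n = 3). HoxA stood at 52.6 ± 0.835 and 49.3 ± 2.02 RPKM, also without overlap, and HoxD, which overlapped, at 19.9 ± 0.927 and 19.6 ± 2.19 RPKM. Of the 25 members tested in this line, which averaged 0.5 RPKM or more in its 6 libraries, none was called, as was 0% of all 11611 genes. None had an adjusted p below 0.05 (limma) either, where 0.586% of all genes did, and 7 members and 1425 genes had an unadjusted p under 0.05. The groups did not overlap for 10 of the 25, 5 in each direction, against 18.9% of all genes tested. Same-numbered C18-4 libraries deviated together (correlations of their deviations from the group means were 0.439, 0.409 and 0.631). Libraries 1 and 2 of opposite groups did so nearly as well (0.341 and 0.345), and those numbered 3 ran against both (-0.514 to -0.467). The values thus showed a split of number 3 from 1 and 2 more than a pairing by number. With the replicate number as a block 5 members passed an adjusted p below 0.05, 2 higher and 3 lower in shM5 cells, where 11.9% of all genes passed, 5.21% higher and 6.73% lower. None reached the fold threshold.

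The members past that threshold were HoxB and HoxC genes. Hoxb9 had 34.84, 36.32 and 44.58 RPKM in shNC replicates 1, 2 and 3 and 44.65, 47.75 and 51.42 RPKM in shM5 replicates, with a log2 difference of 0.32 (SE 0.06, adjusted p = 0.0128 with the block; 0.304 without, limma). Hoxb6, a central gene of the trunk, had 7.2, 7.39 and 5.03 RPKM in shNC and 9.29, 8.76 and 7.44 RPKM in shM5 cells, with a log2 difference of 0.39 (SE 0.09, adjusted p = 0.0276 with the block; 0.435 without, limma). Every shM5 library of both genes was above every shNC library. Hoxc10 had 24.2, 26.1 and 22.7 RPKM in shNC and 19.2, 18.8 and 19.6 RPKM in shM5 cells, a log2 difference of -0.34 (SE 0.07, adjusted p = 0.0184 with the block; 0.151 without, limma). Hoxc13 had 11.3, 12.6 and 9.82 and 9.3, 9.35 and 8.19 RPKM, a log2 difference of -0.32 (SE 0.07, adjusted p = 0.0281 with the block; 0.343 without, limma). Hoxc4, the gene at the head end of HoxC, had 3.65, 3.94 and 3.93 and 2.13, 2.44 and 3.27 RPKM, a log2 difference of -0.56 (SE 0.13, adjusted p = 0.0293 with the block; 0.252 without, limma). All 3 were lower in every shM5 library. Without both libraries numbered 3, a setting chosen after seeing the data, 8 members passed at an adjusted p below 0.05, these 5 and Hoxc9, Hoxd9 and Hoxd13. Of the 25 members tested there, 8 stand beside 26.2% of all genes.

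**Figure D4:**
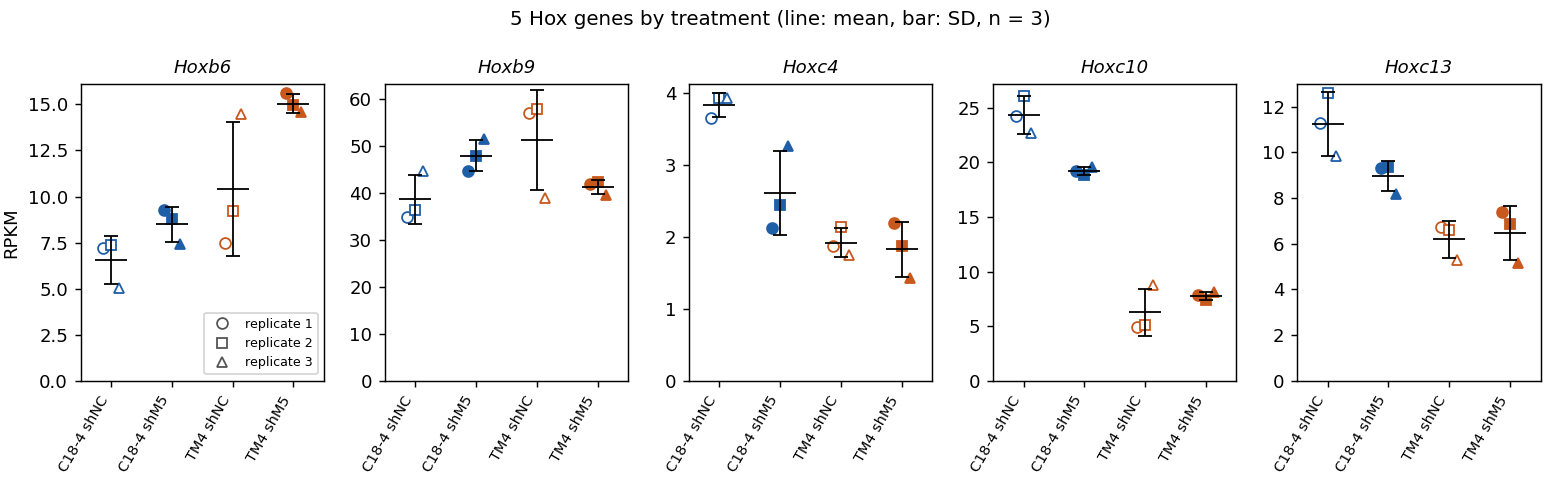
RPKM (y axis from 0) of the 5 Hox genes with an adjusted p below 0.05 in C18-4 cells under the replicate block, in each library of the 4 groups (x axis); open symbols are shNC, filled symbols shM5, the shape gives the replicate number, and lines with bars are means with SD (n = 3). In C18-4 cells Hoxb6 and Hoxb9 are higher and Hoxc4, Hoxc10 and Hoxc13 lower in every shM5 library, while in TM4 cells shNC replicate 3 lies beside the shM5 libraries for Hoxb6, Hoxb9 and Hoxc10.

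None of the other members at 1 RPKM or more in C18-4 cells passed that test, and most ranges overlapped. In HoxA, Hoxa9 spanned 17.8 to 18.2 RPKM in shNC and 16.2 to 18.01 RPKM in shM5 cells. Hoxa10 spanned 14.2 to 17.1 and 13.9 to 16.9 RPKM, and Hoxa7, a trunk gene, 3.45 to 4.99 and 3.47 to 3.95 RPKM. Ranges of Hoxa3 were 2.96 to 3.46 and 2.84 to 3.04 RPKM, of Hoxa4 3.07 to 3.45 and 2.45 to 3.17, and of Hoxa5 2.76 to 3.99 and 2.63 to 3.39. All of these HoxA ranges overlapped. In HoxB, Hoxb4, known for its action on blood stem cells, spanned 3.55 to 4.24 and 4.67 to 5.19 RPKM and Hoxb7 13.7 to 13.98 and 14.4 to 15.3 RPKM, higher in every shM5 library. Hoxb3 was lower in every shM5 library, at 2.29 to 2.34 and 1.73 to 2.12 RPKM, and Hoxb5 (1.11 to 1.74 and 1.39 to 1.7) and Hoxb8 (2.78 to 4.26 and 3.23 to 3.52) overlapped. None of these HoxB genes had an adjusted p below 0.05, with the block or without it, and Hoxb4 came nearest at 0.0576 with the block (limma).

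In HoxC and HoxD, Hoxc9, a gene that sets thoracic motor neuron identity, spanned 7.32 to 10.4 RPKM in shNC and 6.63 to 7.31 RPKM in shM5 cells, lower in every shM5 library, with an adjusted p of 0.0672 with the block (limma). Hoxc6 spanned 10.6 to 11.5 and 10.2 to 11.9 RPKM and Hoxc8 1.72 to 2.12 and 1.56 to 1.8 RPKM. Both overlapped. Hoxd8 spanned 8.5 to 10.2 and 7.94 to 9.23 RPKM and Hoxd9 4.74 to 5.72 and 3.25 to 5.6 RPKM. Hoxd13 was higher in every shM5 library, at 4.23 to 4.87 and 5.22 to 5.46 RPKM (adjusted p = 0.104 with the block, limma). Below the filter, Hoxd11 had 0.14, 0.22 and 0.14 RPKM in shNC and 0.4, 0.35 and 0.4 RPKM in shM5 cells. In all 6 it stayed far under its level in TM4 cells. The other genes present in TM4 cells alone were listed at 0 or stood at 0 to 0.22 RPKM in shNC and 0 to 0.12 RPKM in shM5 cells (Hoxb2), 0.24 to 0.4 and 0.42 to 0.64 RPKM (Hoxd4) and 0.35 to 0.38 and 0.31 to 0.61 RPKM (Hoxd10).

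In TM4 cells none of 33 members tested was called or had an adjusted p below 0.05 (limma), and 0% of all 11016 genes did, while 3 members (Hoxa5, Hoxb6 and Hoxd10, all higher in shM5 cells) and 2866 genes had an unadjusted p under 0.05. Groups did not overlap for 6 of the 33, against 26.8% of all genes tested. Hoxa3, Hoxa5, Hoxb6, Hoxc6 and Hoxd11 were higher and Hoxd4 lower in every shM5 library. Cluster sums were 65.7 ± 2.32 RPKM in shNC and 69.0 ± 1.14 RPKM in shM5 cells for HoxA, 107 ± 7.37 and 100.2 ± 4.55 RPKM for HoxB, 41.9 ± 1.81 and 43.3 ± 2.59 RPKM for HoxC and 45.9 ± 2.10 and 48.5 ± 0.782 RPKM for HoxD.

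This comparison rested on the spread among the shNC libraries. Hoxb9 had 56.9, 57.8 and 38.95 RPKM in shNC replicates 1, 2 and 3 and 41.8, 42.4 and 39.6 RPKM in shM5 cells. Hoxb6 had 7.49, 9.22 and 14.5 and 15.6, 14.9 and 14.6 RPKM, and Hoxc10 4.96, 5.13 and 8.76 and 7.82, 7.37 and 8.14 RPKM. In all 3 genes shNC replicate 3 lay near the shM5 libraries and replicates 1 and 2 away from them. Hoxb13 had 1.85, 2.78 and 5.37 RPKM in shNC and 4.68, 5.43 and 4.79 RPKM in shM5 cells, with the same division. Hoxd10 had 9.63, 10.01 and 11.6 and 13.6, 13.8 and 11.6 RPKM. Without TM4 shNC replicate 3, 15 of 33 members tested had an adjusted p below 0.05 and 1, Hoxb13, was called at a log2 difference of 1.09 (SE 0.17, adjusted p = 0.00073, limma), and of all genes 67.4% then passed an adjusted p below 0.05 and 8.13% were called. Without TM4 shNC replicate 1, or without replicate 2, no gene had an adjusted p below 0.05. What set these libraries apart was not tested, and neither was whether the labels of the 3 shNC libraries are right, on which every shM5 value of TM4 cells rests.

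Of the TM4 genes with the highest levels, Hoxa11 spanned 21.7 to 25.6 RPKM in shNC and 24.8 to 25.96 RPKM in shM5 cells, Hoxa10 16.96 to 19.3 and 18.1 to 18.7 RPKM and Hoxd8 12.2 to 14.99 and 14.4 to 14.6 RPKM. Hoxd11 spanned 8.85 to 9.57 and 9.69 to 9.93 RPKM and Hoxc11 7.64 to 13.2 and 9.21 to 9.6 RPKM. Group 11 therefore stayed high in both arms. Hoxb2 spanned 9.05 to 11.8 and 8 to 9.22 RPKM, Hoxb3 4.63 to 6.82 and 3.96 to 5.78, Hoxb4 3.12 to 4.25 and 3 to 3.53, Hoxb5 1.94 to 2.73 and 1.93 to 2.07, Hoxb7 11.1 to 12.3 and 10.4 to 12.7 and Hoxb8 6.59 to 8.53 and 8.37 to 8.76 RPKM. Each of these HoxB genes overlapped between the arms. Hoxa9 spanned 8.21 to 11.4 and 8.56 to 8.93 RPKM, Hoxa7 4.17 to 5.25 and 5.06 to 5.7, Hoxa5 2.31 to 2.95 and 3.15 to 3.79, Hoxa4 1.77 to 2.28 and 1.33 to 2.02 and Hoxa3 2.05 to 2.3 and 2.52 to 3 RPKM. Of these HoxA genes Hoxa3 and Hoxa5 did not overlap, and by little.

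In TM4 HoxC, Hoxc4 spanned 1.75 to 2.14 RPKM in shNC and 1.43 to 2.19 RPKM in shM5 cells, Hoxc6 8.37 to 9.14 and 9.34 to 10.4, Hoxc9 5.13 to 6.06 and 5.47 to 6.32, Hoxc12 1.59 to 2.59 and 1.15 to 2.09 and Hoxc13 5.27 to 6.72 and 5.14 to 7.37 RPKM. In HoxD, Hoxd9 spanned 9.68 to 10.02 and 8.45 to 9.79 RPKM and Hoxd4 1.7 to 1.79 and 1.02 to 1.52 RPKM. The genes near 0 in TM4 cells stayed there, with Hoxc8 at 0.03 to 0.11 and 0.03 to 0.08 RPKM and Hoxd13 at 0 to 0.02 and 0 to 0.03 RPKM.

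The shM5 effect was compared between the lines by the interaction term of the fit over 12 libraries. None of 34 members had an adjusted p below 0.05 (limma), where 0.102% of all genes did, and 7 members and 2463 genes had an unadjusted p under 0.05. The smallest p among members was that of Hoxd11, with an estimate of 0.80 (SE 0.19, adjusted p = 0.138, limma). Hoxd11 had only 0.14 to 0.4 RPKM in C18-4 cells, near the 0.1 added, and passed the filter through TM4 cells alone. The estimates for the 5 genes named above were, C18-4 minus TM4, 0.61 for Hoxb9 (SE 0.21, adjusted p = 0.193, limma), -0.69 for Hoxc10 (SE 0.25, adjusted p = 0.206, limma) and -0.48 for Hoxc4 (SE 0.26, adjusted p = 0.294, limma), with -0.37 for Hoxc13 and -0.20 for Hoxb6. A difference of the knockdown effect between the lines was therefore not shown for any Hox gene with all libraries. Without TM4 shNC replicate 3, 8 members had an adjusted p below 0.05 for this difference, where 38% of all genes did.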

How the data were processed

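RNA from 12 libraries was measured by RNA-seq, 3 of each line and treatment. The authors had enriched mRNA with oligo(dT), sequenced it on an Illumina HiSeq instrument and aligned reads with SOAPaligner, and they deposited RPKM with 2 decimals for 17995 genes. The methods name RPKM and FPKM, and read counts, the strand used in counting, the genome build and the annotation are not given in the sources used here. RPKM corrects for depth and length but keeps no counting error. Here log2(RPKM + 0.1) was fitted with limma 3.58.1 (R 4.3.3, intensity trend, Benjamini-Hochberg adjustment) in genes averaging 0.5 RPKM or more. All 12 libraries entered the comparison of the lines and its interaction with treatment, and the 6 libraries of a line its shM5 comparison. Calls needed an adjusted p not above 0.001 and a log2 difference of 1 or more in size. Members under the filter were compared by exact permutation tests. The fits were tested on simulated data. Same-numbered C18-4 libraries deviated together (r of 0.439, 0.409 and 0.631), and TM4 libraries did not (0.0729, 0.0489 and 0.127), so the replicate number was added as a block for C18-4 beside the unblocked fit. C18-4 libraries 1 and 2 of opposite groups also deviated together (0.341 and 0.345), so the block rests mainly on the split of number 3.

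Members at 1 RPKM or more in a line were described in every group, members called between the lines were given with their tests, and members passing an adjusted p below 0.05 under shM5 were given by library. Some genes, a Hox gene among them, enter the counts and sums but are not reported here by name. Lists of other genes were summarised by counts with examples of large called difference. Members and lists were chosen with earlier results of these data known. Promoter sequence came from RefSeq (GRCm38.p6, matched by symbol) and exon overlaps from GENCODE M21. Alternatives covered the added value, the filter, the threshold, the scaling, the block, array weights and libraries left out.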

Additional observations from a re-analysis of the deposited data

How the results depend on the processing

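Between the lines the count of called Hox genes was 14 to 15 and that of all genes 3018 to 3267 when single libraries were left out. With 1 RPKM added in place of 0.1, 3 Hox genes were called higher in C18-4 and 9 higher in TM4 cells. With shNC libraries alone these counts were 3 and 10, and with shM5 libraries alone 3 and 10. By adjusted p alone, below 0.05, 30 Hox genes, 13 higher in C18-4 cells, and 8596 genes passed. Under the replicate block 15 Hox genes were called, as without it. For Hoxa5 the sign turned with median-ratio scaling (-0.032), without TM4 shNC replicates 1 and 2 (-0.018), with shM5 libraries alone (-0.14), without replicate 3 of both C18-4 groups (-0.037) and without C18-4 shNC replicate 3, where leaving out single libraries gave -0.019 to 0.115. Hoxa6 turned with shM5 libraries alone (-0.060), and Hoxb9 without TM4 shNC replicates 1 and 2 (0.10) and with shM5 libraries alone (0.21). Median-ratio scaling moved the difference of the lines by -0.10 on the log2 scale and gave Hox sums of 197 RPKM in C18-4 and 269 RPKM in TM4 cells, with 65.8 for central and 122 for posterior genes in C18-4 cells. That scaling gave 1788 genes called higher in C18-4 and 1232 higher in TM4 cells against 1978 and 1123, with Hox calls of 3 and 12 under both.

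For shM5 in C18-4 cells, where 68 genes and 0 Hox genes had an adjusted p below 0.05, 4 genes did with no filter, 30 with equal totals, 0 to 237 with single libraries left out, and 1386 with the replicate block, 5 of them Hox genes and 9 genes called. Leaving out both libraries numbered 3, chosen after seeing the data, gave 3029 genes, 54 of them called, and 8 Hox genes. In TM4 cells leaving out single libraries gave 0 to 7433 genes, 0 to 896 called, with 0 to 15 Hox genes and 0 to 1 called. Leaving out both libraries numbered 3 there gave 8016 genes, 1021 called, 18 Hox genes and 1 Hox gene called. For the difference of the shM5 effect, 12 genes had an adjusted p below 0.05. This was 27 with 1 RPKM added, 21 with no filter, 22 with median-ratio scaling, 5 with equal totals, 1 with the replicate block and 0 to 4477 (0 to 552 called, 0 to 8 Hox genes) with single libraries left out. The cause of these changes was not tested, and how far depth limits the low values is unknown without read counts.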
